A study of Mus musculus with 2 samples.

Results

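The Hox genes code for homeodomain transcription factors that give cells their position along the body axis. In the mouse 39 of them lie in 4 compact clusters, Hoxa, Hoxb, Hoxc and Hoxd, and the members of different clusters that stem from the same ancestral gene carry the same paralogue number. Low numbers sit at one end of a cluster and act toward the head, high numbers sit at the other end and act toward the tail, and fibroblasts from different body sites are known to keep different sets of Hox genes active. Between the genes lie microRNA genes and long non-coding RNAs, such as Mir10a and Hotair. The question asked of these genes was where in the 4 clusters miR-9 was captured with chromatin.

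The Hox peaks were taken from the miR-9 ChIRP-seq peak list of MLg cells, a mouse lung fibroblast line (ATCC CCL-206). They are the peaks whose deposited gene name was that of a Hox gene with its number. These were 18 of 17922 peaks, with 1 in Hoxa, 7 in Hoxb, 10 in Hoxc and 0 in Hoxd. In ChIRP-seq, formaldehyde fixes RNA to chromatin, biotinylated probes against the mature miRNA pull it down, and the DNA held with it is sequenced. The probes captured the miR-9 that the cells make themselves, the labels name no treatment beyond the crosslinking, and 1 capture library was set against 1 input library, so no result has a replicate check. A capture with a control probe was not analysed here. The list holds positions and annotation but no usable height, read count or p-value, and the depth of the libraries was unknown here. It measures no RNA, so the cell line could not be checked against marker genes and the Hox expression of these cells was not part of the data.

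The letters that bear on these peaks are shown first. The labels name mature Mir9 as the target of the probes without its arm. The 5p arm was searched for in the peaks and is printed from RefSeq (GRCm38.p6) with its seed, bases 2 to 8, in capitals. Below it stand miR-10a-5p, whose gene lies in the Hoxb cluster beside a peak, and miR-10b-5p, whose gene lies in the Hoxd cluster, which had none.
miR-9-5p: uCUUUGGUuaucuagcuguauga
miR-10a-5p: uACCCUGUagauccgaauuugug
miR-10b-5p: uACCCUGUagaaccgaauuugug
The 2 miRNAs of the Hox clusters share 1 seed, which differs from that of miR-9-5p.

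The longest stretches of miR-9-5p in peaks of the clusters came mostly from its middle and 3' part. Each is given as 30 bases read in the sense of the miRNA, with the matching bases in capitals (mm10). All of them are from peaks with a match of 9 bases or more.
Hoxc13, chr15:102885208-102885237, minus strand, miR-9 bases 9 to 19: gttgcatggcTATCTAGCTGTccttccctg
Hoxc5, chr15:103011623-103011652, plus strand, bases 11 to 21: gtgaatattTCTAGCTGTATttgtggtctc
Hoxc9, chr15:102982242-102982271, minus strand, bases 10 to 19: aggggctgtaATCTAGCTGTccccgcctgg
Hoxc6, chr15:103001078-103001107, plus strand, bases 10 to 18: cctacaggggATCTAGCTGgatgtgctaat
Hoxc4, chr15:103050951-103050980, minus strand, bases 14 to 22: ctttgttcgtcAGCTGTATGccttttggaa
Hoxa10, chr6:52240871-52240900, plus strand, bases 2 to 10: acttgagagaCTTTGGTTAatctttaacca
The 5 sites listed under Hoxc genes all span bases 14 to 18 of miR-9-5p. They therefore share the letters AGCTG by the way they were searched for. The site at Hoxa10 was the only one of the 6 that held the seed. The peak at the Hoxc9 site was centred in an exon of Hoxc9 but was named for the RNA gene Gm36878, so it was not counted among the 18.

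In the Hoxc cluster, peaks were gathered at Hoxc6 and Hoxc5, neighbouring genes that act in the neck and chest region of the trunk. On chromosome 15, 3 peaks followed each other here with gaps of 173 and 323 bases. The first, at 103009236 to 103009776, had 541 bases and covered the start of Hoxc6, with its centre 56 bases upstream (a distance of -56). The second, at 103009950 to 103011098, had 1149 bases and was centred in the only intron of the curated Hoxc6 transcript, 962 bases downstream of the start. The third, at 103011422 to 103014829, had 3408 bases, began in the end of Hoxc6, filled the interval to Hoxc5 and ran past the start of Hoxc5, with its centre at -883. It was the widest Hox peak and ranked at 58 by width in the whole list. Together the 3 peaks took up 5098 of 5594 bases (91.1%), and they held 40.4% of all bases in Hox peaks. The hairpin of Mir615, a miRNA gene inside Hoxc5, began 80 bases beyond the end of the third peak. Another peak of 541 bases lay at 103000870 to 103001410, at -8422 from the curated start of Hoxc6. HOMER annotated it as intergenic, while the RefSeq span of Hoxc6, predicted transcripts included, extends over it.

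The other peaks named for Hoxc genes were spread over the cluster and its surroundings. Hoxc13, which is needed for hair and nails, had 2 peaks. One of 1701 bases at 102883822 to 102885522 lay outside the cluster, at -36459 from Hoxc13, and held the 11-base stretch of miR-9-5p shown above. The other, of 152 bases at 102924423 to 102924574, lay in the intron of Hoxc13 at 3367. Hoxc11 had the narrowest Hox peak, with 81 bases at 102951948 to 102952028 and a distance of -2538. Hoxc8, which acts in thoracic vertebrae and motor neurons, had a peak of 376 bases at 102987906 to 102988281 (-2446). Hoxc4, at the other end of the cluster, had peaks of 476 and 122 bases that lay far beyond its last exon, 16386 and 52462 bases downstream of its start.

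The peak at Hoxc13 and the peak at Hoxc8 were both annotated as the simple repeat (TAGA)n. They are printed because both centre on a run of the same length, with 12 unbroken TAGA units in capitals.
Hoxc13 intron, chr15:102924476-102924543, plus strand: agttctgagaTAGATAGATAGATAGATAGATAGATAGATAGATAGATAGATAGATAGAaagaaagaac
Upstream of Hoxc8, chr15:102988037-102988104, plus strand: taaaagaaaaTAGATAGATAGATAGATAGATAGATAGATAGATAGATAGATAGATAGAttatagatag
Of the 32-base words in these peaks, 27.3% and 10.1% occurred at 5 or more places of the genome. A read from such a run can be placed at another copy.

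In the Hoxb cluster on chromosome 11 the peaks named for Hoxb genes ran from Hoxb8 to beyond Hoxb1, and most were of ordinary width. The exception was at Hoxb2, a gene of hindbrain segments, where a peak of 1884 bases at 96349485 to 96351368 ended just before the gene, with its centre at -1206. It ranked at 199 by width in the whole list and was annotated to the first intron of the antisense RNA gene Hoxb3os. Hoxb3, its neighbour, had a peak of 600 bases at 96324226 to 96324825 in the first intron of a curated Hoxb3 transcript (1399). Hoxb1, which sets the identity of a hindbrain segment, had 2 narrow peaks of 156 and 131 bases, 4321 and 5246 bases downstream of its start and therefore past its end. Hoxb6 had a peak of 144 bases at 96297127 to 96297270 (-1876), in an intron of the antisense RNA gene Hoxb5os.

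Repeats were annotated in 3 of the 7 Hoxb peaks. The peak of 529 bases at Hoxb7 (96288902 to 96289430, at 2520) was annotated as (CA)n, and 23.9% of its 32-base words were found at 5 or more places. The peak of 483 bases at Hoxb8 (96278194 to 96278676, at -3470) was annotated as the retroviral repeat RLTR20A4. An unbroken run of 20 CA units lay in it too, longer than the run of 16 units at Hoxb7. Of its 32-base words, 7.74% were found at 5 or more places. The second peak at Hoxb1 was annotated as the old SINE element MIR.

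In the Hoxa cluster on chromosome 6 only Hoxa10 gave its name to a peak. Hoxa10 is known for its part in the lower trunk and in the uterus. The peak had 158 bases, from 52240750 to 52240907, and its centre was 26 bases downstream of the start of the longer Hoxa10 transcript. It therefore covered the start itself, and the seed match printed above lay in its upstream part. No repeat was annotated there and none of its 32-base words was high copy.

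**Figure D1:**
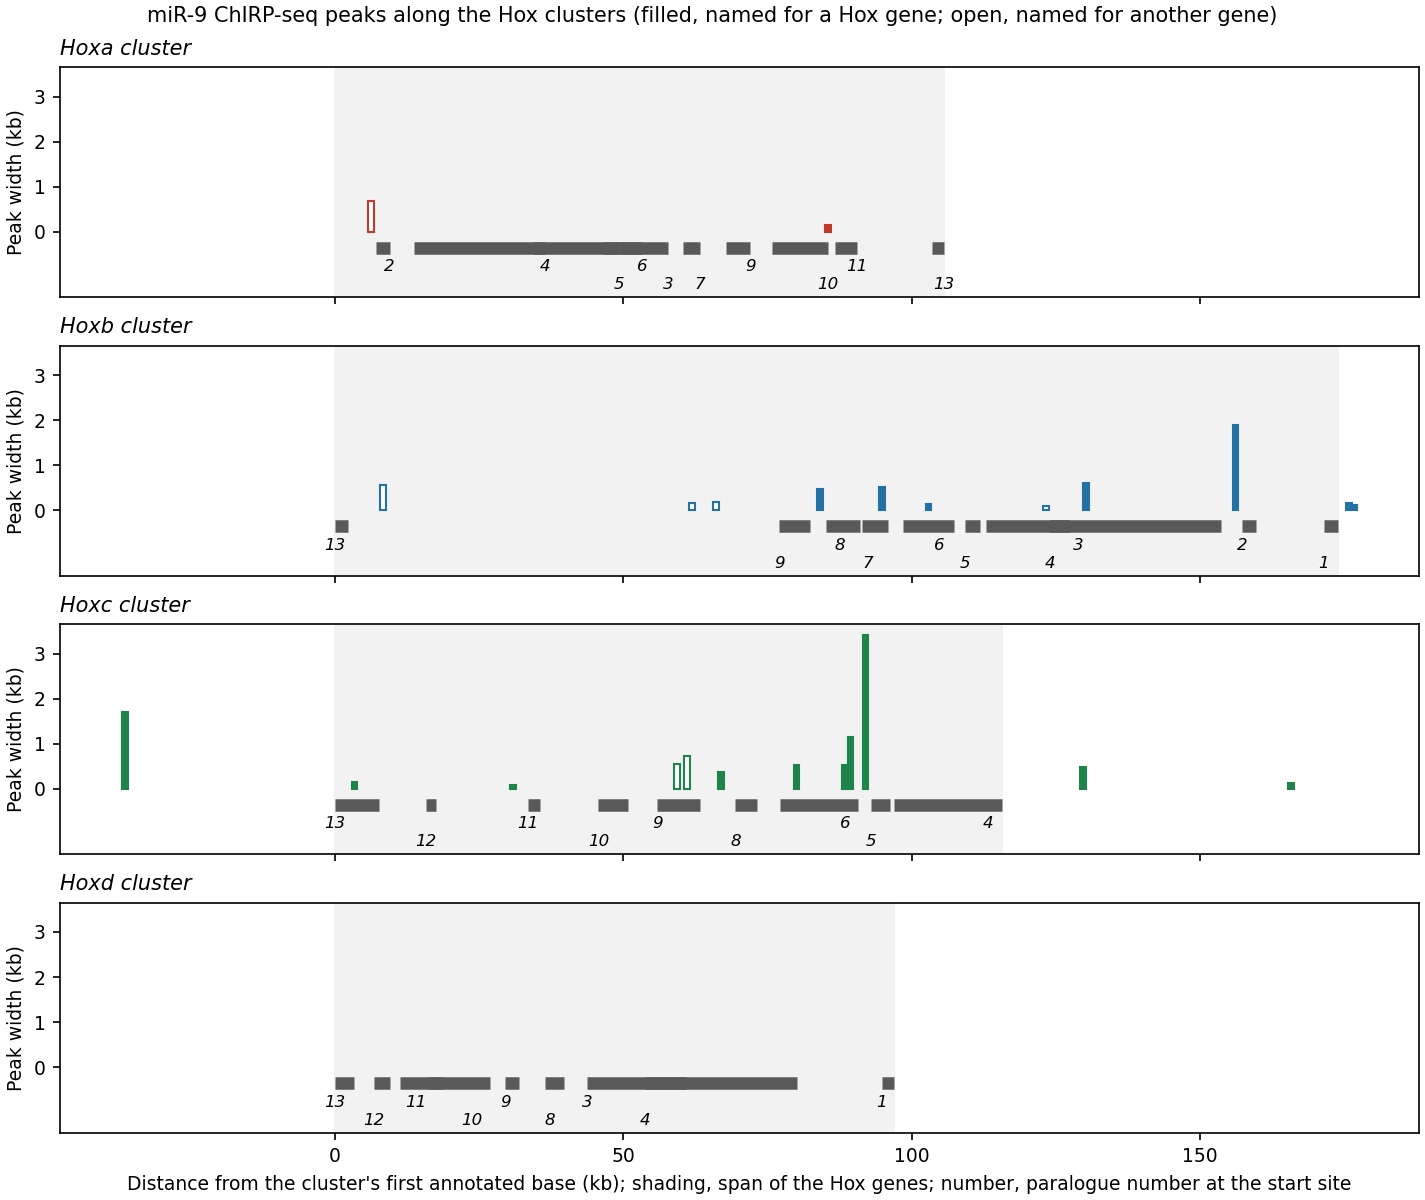
Peaks along the 4 Hox clusters, drawn by distance in kb from the first annotated base of each cluster, with gene bodies as dark bars, the span of the Hox genes shaded, and peak width in kb as the height of the coloured bars (filled, named for a Hox gene; open, named for another gene; bar thickness has no meaning). The tallest bar is the peak of 3408 bases at Hoxc5, and the Hoxd panel has no bar.

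Some peaks inside the clusters were named for genes other than Hox genes, because HOMER names a peak for the nearest start of any transcript. By position, 20 peak centres lay between the outermost Hox gene ends of the clusters, of which 13 were among the 18 and 7 had other names. The other 5 of the 18 lay outside these ends. At Hoxb4, a regulator of blood stem cells, a peak of 99 bases at 96317485 to 96317583 lay at -733 from the start and was annotated to the Hoxb4 promoter, but was named for Mir10a, whose start was 369 bases away. Between the distant Hoxb13 and Hoxb9, peaks of 558, 176 and 178 bases carried the names Gm11538, Gm53 and Mir196a-1. In Hoxc9, peaks of 552 and 729 bases were named for Gm36878. In the Hoxa cluster a peak of 687 bases at 52161220 to 52161906 lay near Hoxa2, inside the long non-coding RNA gene Hotairm1.

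The density of peaks over the 4 clusters together was above that of their chromosomes, by the counts of Hoxb and Hoxc. Together the 4 spans covered 492 kb and held 20 peaks, or 40.6 per Mb (exact Poisson 95% interval 24.8 to 62.8, for counting error only), against 6.58 per Mb over the genome. At the densities of their own chromosomes the spans would hold 4.46 peaks, so the ratio was 4.49 (2.74 to 6.93). Hoxc had 9 peaks in 116 kb, 77.8 per Mb (35.6 to 148), where chromosome 15 had 6.80. The intervals treat peaks as independent, but 3 of these 9 were the closely spaced peaks at Hoxc6 and Hoxc5 described above. Hoxb had 9 peaks in 174 kb, 51.7 per Mb (23.7 to 98.2), where chromosome 11 had 10.8. Hoxa had 2 peaks in 106 kb, 19.0 per Mb (2.30 to 68.5), an interval that contains the 11.4 of chromosome 6.

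Hoxd, on chromosome 2, had 0 peaks in 96.9 kb. This allows up to 38.1 peaks per Mb, and at the 6.13 per Mb of its chromosome 0.594 peaks would fall there, so the lack of peaks was not told apart from the chromosome average. The interval of Hoxd also overlapped that of Hoxc at its edge. Hoxd lay in a peak-free stretch of 277 kb, from a peak at Lnpk to a peak 169 bases inside Mtx2. Of all 17901 gaps between neighbouring peaks, 15.0% were at least as long.

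In 1 Mb on each side of Hoxc there were 11.5 peaks per Mb, below the interval of the cluster. At Hoxb there were 48 peaks in these flanks, 24 per Mb, a value just inside the interval of the cluster. The flanks had 15 peaks per Mb at Hoxa and 7 at Hoxd. Peaks covered 6.51% of the Hoxc span, 2.67% of Hoxb and 0.801% of Hoxa, against 0.275% of the genome. Without Hoxc the ratio over the other 3 clusters was 3.00.

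**Figure D2:**
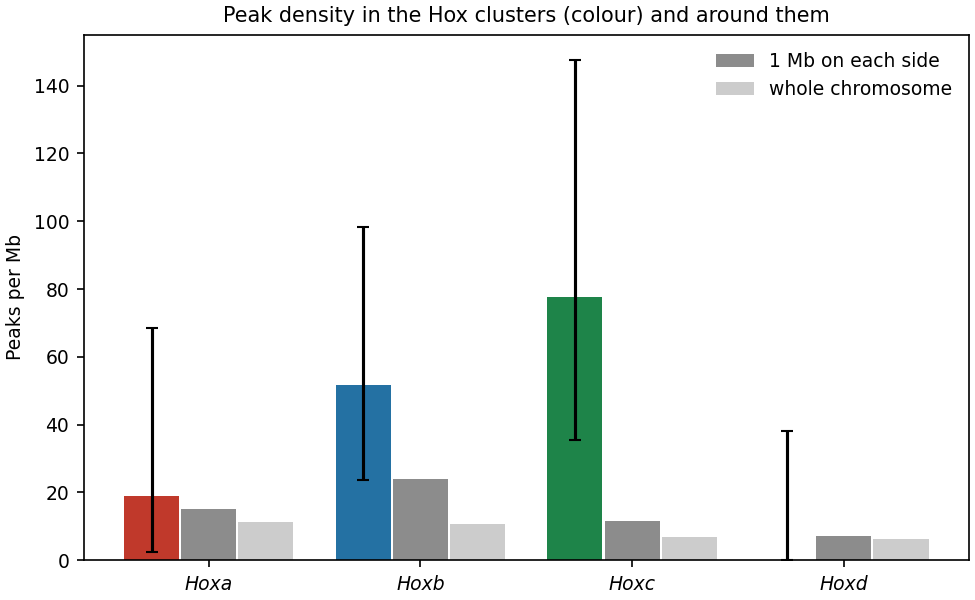
Peaks per Mb (y axis, linear from 0) in each Hox cluster (colour, with exact Poisson 95% intervals), in 1 Mb on each side (dark grey) and on the whole chromosome (light grey). Hoxc stands at 77.8 and Hoxb at 51.7, both with intervals above their chromosomes, while the intervals of Hoxa and Hoxd contain the chromosome value.

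Counted by gene, 7 of the 39 Hox genes (17.9%, exact binomial 95% interval 7.54 to 33.5%) had a peak centre within 2 kb of an mRNA start, where 6.64% of all protein-coding genes did. They were Hoxa10 (26), Hoxb2 (-1206), Hoxb3 (1399), Hoxb4 (-733), Hoxb6 (-1876), Hoxc5 (-883) and Hoxc6 (-56). Hoxb thus had 4 of 10 genes, Hoxc 2 of 9, Hoxa 1 of 11 and Hoxd 0 of 9. Within 5 kb there were 17 of 39 (43.6%), against 12.2% of all protein-coding genes, with 7 in Hoxb, 6 in Hoxc and 4 in Hoxa. HOMER had assigned at least 1 peak to 13 of the 39, against 35% of all protein-coding genes. The interval treats genes as independent, and neighbouring Hox genes can share a nearest peak.

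Hoxa5 and Hoxb5, which have known parts in lung development, were not among the 7. With 17.9% of all Hox genes that near a peak, both can lack one. Hoxa5, whose loss disturbs lung and airway formation in the mouse, had its nearest peak 36.2 kb away, the largest distance in the Hoxa cluster. Hoxb5, which acts in airway branching, had its nearest peak at 6.31 kb. The median distance from a Hox start to the nearest peak was 8.28 kb over all 39 genes, with 3.00 kb in Hoxb, 3.37 kb in Hoxc, 20.1 kb in Hoxa and 120 kb in Hoxd. Over all protein-coding genes it was 42.0 kb.

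By paralogue number, the counts were highest among the low and middle numbers, but their intervals overlapped. Of the genes numbered 1 to 3, 2 of 8 had a peak within 2 kb, of those numbered 4 to 8, 4 of 15, and of those numbered 9 to 13, 1 of 16, which was Hoxa10. The exact intervals of these shares were 3.19 to 65.1%, 7.79 to 55.1% and 0.158 to 30.2%. These number groups draw on the clusters unequally, and those numbered 1 to 3 with a peak were Hoxb2 and Hoxb3. Paralogue number and cluster were thus not told apart. Hoxc6 had 3 assigned peaks and Hoxb1, Hoxc4 and Hoxc13 had 2 each, the highest numbers. No paralogue number had a peak within 2 kb of a start in more than 1 cluster except 6, with Hoxb6 and Hoxc6.

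**Figure D3:**
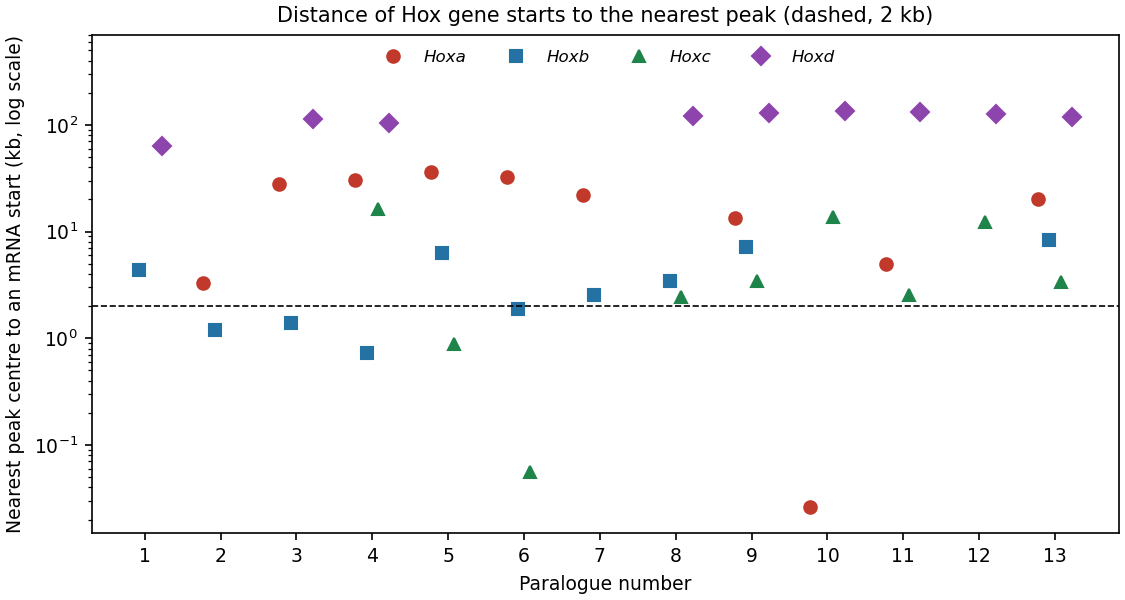
Distance in kb (log scale) from the mRNA start of each Hox gene drawn to the nearest peak centre, by paralogue number, with 1 symbol and colour per cluster and a dashed line at 2 kb. The 7 points under the line are from Hoxa, Hoxb and Hoxc, and the Hoxd genes lie between 63.0 and 134 kb.

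Counted by peak, 7 of the 18 (38.9%, 17.3 to 64.3%) were centred within 2 kb of a TSS by the deposited distance, against 8.31% of all peaks. Hox genes are packed closely, and 45.0% of the bases in the 4 spans lay within 2 kb of a curated start, against 3.83% of the genome. Of the 20 peaks inside the spans, 11 (55.0%, 31.5 to 76.9%) were that near, an interval that contains 45.0%. Within the clusters, closeness to starts was thus not told apart from the packing of the genes. By feature, 3 of the 18 were annotated as promoter-TSS (Hoxa10, Hoxc5 and Hoxc6), 6 as introns and 9 as intergenic.

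The widths of the Hox peaks followed both width classes of the list and reached beyond them. The median was 480 bases (order-statistic 95% interval 152 to 600), against 408 over all peaks, and 11 of 18 (61.1%, 35.7 to 82.7%) were wider than 250 bases, against 52.7% of all peaks. Of the narrow ones, 3 were in Hoxb, 3 in Hoxc and 1 in Hoxa. Over 1000 bases wide were 590 of all 17922 peaks and 4 of the 18 Hox peaks, at Hoxc5, Hoxb2, Hoxc13 and Hoxc6. Those at Hoxc5 and Hoxc6 were neighbours, with 323 bases between them. Since the list merges calls made at more than 1 fragment shift, width need not follow the amount of miR-9.

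**Figure D4:**
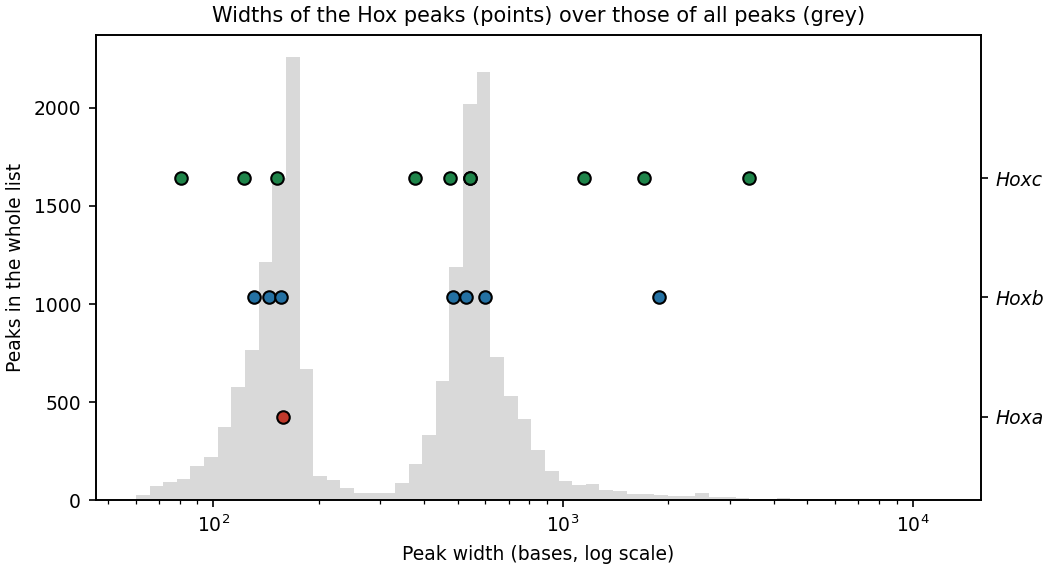
Width in bases (log scale) of the 18 Hox peaks, as points in 1 row per cluster, over the histogram of all 17922 widths (grey, left axis in peaks). The points at 1149, 1701, 1884 and 3408 bases lie beyond both humps of the histogram.

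Repeats were annotated in 5 of the 18 Hox peaks (27.8%, 9.69 to 53.5%), against 48.7% of all peaks, an interval that contains the share of all peaks. It also contains the 14.5% of all peaks within 2 kb of a TSS. The 5 were 3 simple repeats, 1 LTR and 1 SINE, and no Hox peak was in a LINE, the class of 18.7% of all peaks. Every one of the 18 had a median of 1 copy per 32-base word, and at most 27.3% of the words of any of them were high copy. The GC content of the Hox peaks had a median of 48.8%, from 31.6% in the TAGA peak at Hoxc13 to 55.3% in the intron of Hoxc6. Over all peaks the median was 42.2%, and over those within 2 kb of a TSS it was 48.8%.

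A stretch of at least 10 bases of miR-9-5p was present in 2 of the 18 peaks (11.1%, 1.38 to 34.7%), against 6.04% of all peaks. They were the wide peaks at Hoxc5 and upstream of Hoxc13, with 11 bases each. Among all peaks over 1000 bases, the share was 17.6%, and 2 of the 4 Hox peaks of that width had it. Stretches of 9 bases or more were found in 5 of the 18 (27.8%, 9.69 to 53.5%), against 12.8% of all peaks, an interval that contains this share. Of these 5, 4 were in Hoxc and 1 was at Hoxa10. In Hoxb the longest stretch was of 8 bases, at Hoxb2.

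G-quadruplex (G4) motifs, searched on both strands as 4 G runs, each 3 or longer, set apart by loops no longer than 7 bases, were found in 6 of the 18 Hox peaks (33.3%, 13.3 to 59.0%), against 5.65% of all peaks. Of all peaks within 2 kb of a TSS 13.6% had one, a share that the interval of the Hox peaks contains at its lower edge. The 6 were the peaks at Hoxc5, Hoxb2 and Hoxb8, the intron peak and the distal peak of Hoxc6, and the nearer peak of Hoxc4. All were wider than 250 bases, so that 6 of the 11 wide Hox peaks had the motif, where 9.44% of all wide peaks did. Among all peaks over 1000 bases the share was 25.8%, and of the 4 Hox peaks of that width 3 had it. The promoter peaks of Hoxa10 and Hoxc6 had none. A loop could hold any base, so a long unbroken run could count as several runs, as in the Hoxc5 example below. The Hoxc5 peak also held a motif with 4 separate runs. Examples follow, with the motif in capitals.
Hoxc5 peak, before the gene, chr15:103013786-103013824, plus strand (motif on the minus strand): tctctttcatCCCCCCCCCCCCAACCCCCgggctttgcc
Hoxc6 intron, chr15:103010571-103010613, plus strand: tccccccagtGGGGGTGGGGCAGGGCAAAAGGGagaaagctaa
Hoxb2 peak, chr11:96349495-96349533, plus strand: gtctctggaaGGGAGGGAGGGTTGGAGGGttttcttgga
The motif is a pattern of letters and does not measure folded G4.

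Of 15 RNA genes within the clusters, 2 (13.3%) had a peak centre within 2 kb, Mir10a at 369 and Mir615 at -1785, and 8 (53.3%) within 5 kb. Of all protein-coding genes, 6.64% and 12.2% did, and of the 39 Hox genes 17.9% and 43.6%. No share over all RNA genes was computed. These RNA genes lie among the Hox genes and share their peaks. Hotair, the Hoxc antisense RNA known from human fibroblasts, had its nearest peak at -4042, the narrow one named for Hoxc11. Mir10b, in Hoxd, had its nearest peak 99911 bases away, and Hottip, beside Hoxa13, had it at -21947.

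Genes of proteins that work with Hox factors, or keep Hox genes on or off, were counted in the same way, against 6.64% of all protein-coding genes within 2 kb and 12.2% within 5 kb. Of 9 genes of Hox cofactors, which bind DNA together with Hox proteins, 1 had a peak within 2 kb (11.1%) and 2 within 5 kb. Meis2 had a peak of 531 bases at -34, and Pknox1 one of 642 bases at 2811. Of 17 genes of Polycomb and MLL regulators, which repress or maintain Hox transcription, 1 (5.88%) had a peak within 2 kb and 4 (23.5%) within 5 kb. Suz12, a core subunit of the H3K27 methyltransferase, had a peak of 1284 bases at 1663. Ring1, Pcgf2 and Cbx2, all of Polycomb complexes, had peaks at -2563, -3359 and -4415. HOMER had assigned 1 peak to Cbx2 but no peak to Ring1 or Pcgf2. No interval was computed for these short lists, so their shares were not told apart from those of all protein-coding genes.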

How the data were processed

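One miR-9 capture and 1 input library of MLg cells were described, without replicates, so no test was run. Per the study's methods, the authors trimmed single-end reads with Trimmomatic 0.36, aligned them to mm10 with Bowtie2, removed duplicates with Picard, called peaks against input with MACS at an uncorrected p-value cutoff and more than 1 fragment shift, merged the lists with bedtools and annotated them with HOMER. Every deposited peak score was 0, so scores were not used. Annotation cells broken over several fields, in 8093 peaks, were rejoined. Peaks were ranked by width alone. The values of 1 Hox gene are not reported here, and the figures leave it out, while counts over genes include it.

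Hox gene spans, starts and sequences came from RefSeq GRCm38.p6, the assembly behind mm10, and distances were deposited for peaks and recomputed for genes. Protein-coding genes with a curated mRNA served as the background. Shares have exact (Clopper-Pearson) and densities exact Poisson 95% intervals, computed with Python 3.11.15 and scipy 1.17.1, and cover counting error only. Word copies were counted on both strands of the chromosomes. The readers and searches were tested on simulated sequence. Described in full were Hox genes with a peak within 2 kb, the widest peak and the longest miR-9-5p stretches per cluster, and peaks with a G4 motif. The members and gene lists were chosen with earlier results of these data known. Alternatives covered membership by position, width limits, distance windows, spans, stretch lengths and G4 loops.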

Additional observations from a re-analysis of the deposited data

How the results depend on the processing

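No paired analysis was possible because there was 1 library per group and no test. With peaks over 250 bases only, 11 Hox peaks were left of 18. With those of at least 574 bases, 5 were left (27.8%, against 25.3% of all peaks). The number of Hox genes with a peak near a start changed from 7 to 4 within 1 kb, to 17 within 5 kb and to 4 with peaks over 250 bases only, and the share of Hox peaks near a TSS from 38.9% to 72.2% within 5 kb. With stretches of 12 bases of miR-9-5p the share was 0 of 18, which allows up to 18.5%. The other 20 of 27 alternatives stayed inside the interval of the main value or close to the main count. Among them, the density ratio of 4.49 ranged from 3.00 without Hoxc, an alternative chosen after seeing the data like the other left-out clusters, to 6.74 by bases covered. The unknown depth and the single capture limit all values.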

Other observations

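Genes that flank the clusters, and other homeobox families, were examined alongside. Of 13 flanking genes found in the annotation, 2 (15.4%) had a peak centre within 2 kb of a start, where 6.64% of all protein-coding genes did. These were Mtx2, a mitochondrial protein gene next to Hoxd, with a peak of 568 bases at 169, and Cbx1, a heterochromatin protein gene beyond Hoxb, with a peak of 150 bases at -1580. Evx1, the homeobox gene next to Hoxa13, had its nearest peak, of 533 bases, at -25098, and Evx2, next to Hoxd13, at 110515. Of 18 other homeobox genes, of head, limb and organ development, 1 (5.56%) had a peak within 2 kb, and the same 1 within 5 kb, against 12.2% of all protein-coding genes. It was the eye gene Six6, at -946. Neither the 6 ParaHox and Cdx genes, which are related to the Hox genes, nor the 6 T-box and forkhead genes of lung mesenchyme had a peak within 5 kb, and at 12.2% of all protein-coding genes lists of this size can have 0. The nearest of the latter was at -13619 from Foxf2.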
